A study of Mus musculus with 22 samples.

Results

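Myc, Kit, Hras, Vegfa, Bcl2, Pdgfa, Hif1a, Ret and Rb1 are genes whose human promoters serve as models of DNA G-quadruplex (G4) folding. These 9 genes were taken by name from 26180 curated mouse RefSeq genes. Each was described by the G4, ATAC, ATRX and H3K9me3 peaks within 1 kb of its transcription start site (TSS), in its first exon and intron and over its body. The TSS was the most upstream curated start on GRCm38.

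A G-quadruplex forms when 4 runs of guanines in a single strand pair into stacked tetrads, and it leaves the opposite strand unpaired. Such sequences are common in promoters without a TATA box, and small molecules that hold the fold have been used to lower transcription of Myc, Kit and other genes of this group. ATRX is a chromatin remodeller that binds G-rich repeats and helps deposit the histone variant H3.3, and H3K9me3 is a mark of heterochromatin.

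The study asked whether TERRA, the telomeric repeat-containing RNA, affects G4 structures and ATRX on chromatin. Mouse embryonic stem (ES) cells (a CAST/Ei x 129/Sv/Jae cross), cultured with LIF, received scramble or TERRA LNA gapmers (antisense oligonucleotides that direct RNA cleavage) and were collected 12 h later. All libraries came from knockdown cells, so the scramble KD cells also went through transfection, and no untreated cells were used here. Each assay had 2 scramble KD and 2 TERRA KD libraries: G4 ChIP-seq with the BG4 antibody, ATAC-seq for accessible chromatin, and ChIP-seq for ATRX and H3K9me3. The study calls the replicates biological, although the labels do not name a culture for each, and p-values measure only the spread between these libraries. TERRA itself is not measured by peak lists, and its loss could not be checked here.

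The libraries held 2961038 to 24588605 tags for G4, 5976014 to 7883648 for ATAC, 4104486 to 15506154 for ATRX and 5435286 to 13898785 for H3K9me3. A peak list says where enrichment passed a p of 0.01 in that library, and a site with no listed peak is a site where enrichment was not detectable at that depth. In bulk cells, a site bound in fewer cells and a site bound less in each cell cannot be told apart. Among marker genes, 7 or 8 of 8 ES cell markers had an ATAC peak within 1 kb of the TSS in each library. Of 8 markers of fibroblast feeder cells, 4 or 5 did. Col1a1, Col1a2, Thy1 and Twist2 had a peak in every list and Prrx1 in TERRA KD replicate 2 only. Col3a1, Postn and Lum had none in any list. Peaks were also found at 2 of 3 endoderm markers and at 3 of 3 neural markers, and accessibility is not a measure of expression. Among all TSS, 59.4% and 63.5% had an ATAC peak in the scramble KD lists and 62.3% and 64.2% in the TERRA KD lists. Against such shares, these counts do not tell which cell types were present.

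The G4 list of TERRA KD replicate 2 stood apart from the other 3. It held a peak within 1 kb of 22.1% of all TSS, against 41.2% and 64.1% in scramble KD replicates 1 and 2 and 48.5% in TERRA KD replicate 1. Its 13127555 tags were more than the 2961038 of scramble KD replicate 1 and the 5759282 of TERRA KD replicate 1. TSS with an ATAC peak had a G4 peak less often than TSS without one in this list, 16.1% against 32.9%, whereas in scramble KD replicate 1 the shares were 55.0% and 21.0%. G4 differences between the conditions are therefore given with and without this library, and the part of this library in the differences between conditions was not tested.

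A G4 motif, here 4 runs of at least 3 G with loops of 1 to 7 bases on either strand, was found within 1 kb of the TSS in 8 of the 9 genes, and in 54.9% of all TSS. Within 250 bp before to 50 bp after the TSS, 7 of the 9 had one, against 21.8% of all TSS. The tract nearest to the TSS is shown for each of the 8 genes, with both tracts of Myc, since these are the sequences over which the peaks are read. They come from the RefSeq reference GRCm38.p6, which is C57BL/6J and not the strain of the cells, and are written 5′ to 3′ on the G-rich strand with G runs of at least 3 in capitals. Where a merged tract was longer than 30 bases, a stretch that holds 1 motif is shown.
Vegfa: GGGGcGGGtctGGGcGGGGcttGGGGG
Pdgfa: GGGcggaGGGcGGGGGctGGG
Kit: GGGcGGGagaaGGGaGGGG
Ret: GGGGcGGGaccaGGGGtgcGGG
Hras: GGGcgtGGGGcggagcGGGGcGGGG
Myc, upstream tract: GGGaactcGGGaGGGGGGctagtGGGG
Myc, tract at the TSS: GGGcGGGtGGGcGGGG
Rb1: GGGccgcGGGcgtcagtGGGGaaccGGGG
Bcl2: GGGcGGGaggacGGGccGGGG

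The Vegfa stretch (chr17:46032424-46032450, minus strand) was centred 60 bp upstream of the TSS and the Pdgfa stretch (chr5:138995025-138995045, plus strand) lies in a tract centred 76 bp upstream. Vegfa and Pdgfa encode secreted growth factors of endothelial and mesenchymal cells. The Kit stretch (chr5:75574889-75574907, plus strand) was centred 89 bp upstream of the gene for the stem cell factor receptor. In Ret, the receptor kinase for GDNF ligands, the nearest stretch (chr6:118197403-118197424, plus strand) lay 330 bp downstream of the TSS, in the untranslated part of the first exon. The Hras stretch (chr7:141194005-141194029, minus strand) lies directly upstream of the first exon, and the tract it belongs to crosses the TSS.

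The Myc stretches (chr15:61985231-61985257 and chr15:61985340-61985355, both minus strand) belong to tracts centred 101 bp upstream of the TSS and 6 bp downstream of it. The Rb1 stretch (chr14:73325861-73325889, plus strand) was centred 53 bp upstream and the Bcl2 stretch (chr1:106714294-106714314, plus strand) lies in a tract centred 28 bp upstream. Over the 8 genes there were 31 tracts, of which 15 were upstream of the TSS, 10 in introns, 5 in untranslated and 1 in coding exon sequence. The G-rich strand was the coding strand for 16 and the template strand for 15. Pdgfa held most, with 8 tracts, and Myc and Bcl2 held 2 each.

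Hif1a, the oxygen-regulated transcription factor, had no tract within 1 kb of its most upstream TSS, where the GC content was 42.1%. The GC content of the other 8 windows ran from 56.7% in Bcl2 to 71.8% in Pdgfa, and the median over all TSS was 50.9%. Hif1a has another curated start 6543 bp downstream, in a window of 61.3% GC that also held no tract. It is described at both starts.

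**Figure D1:**
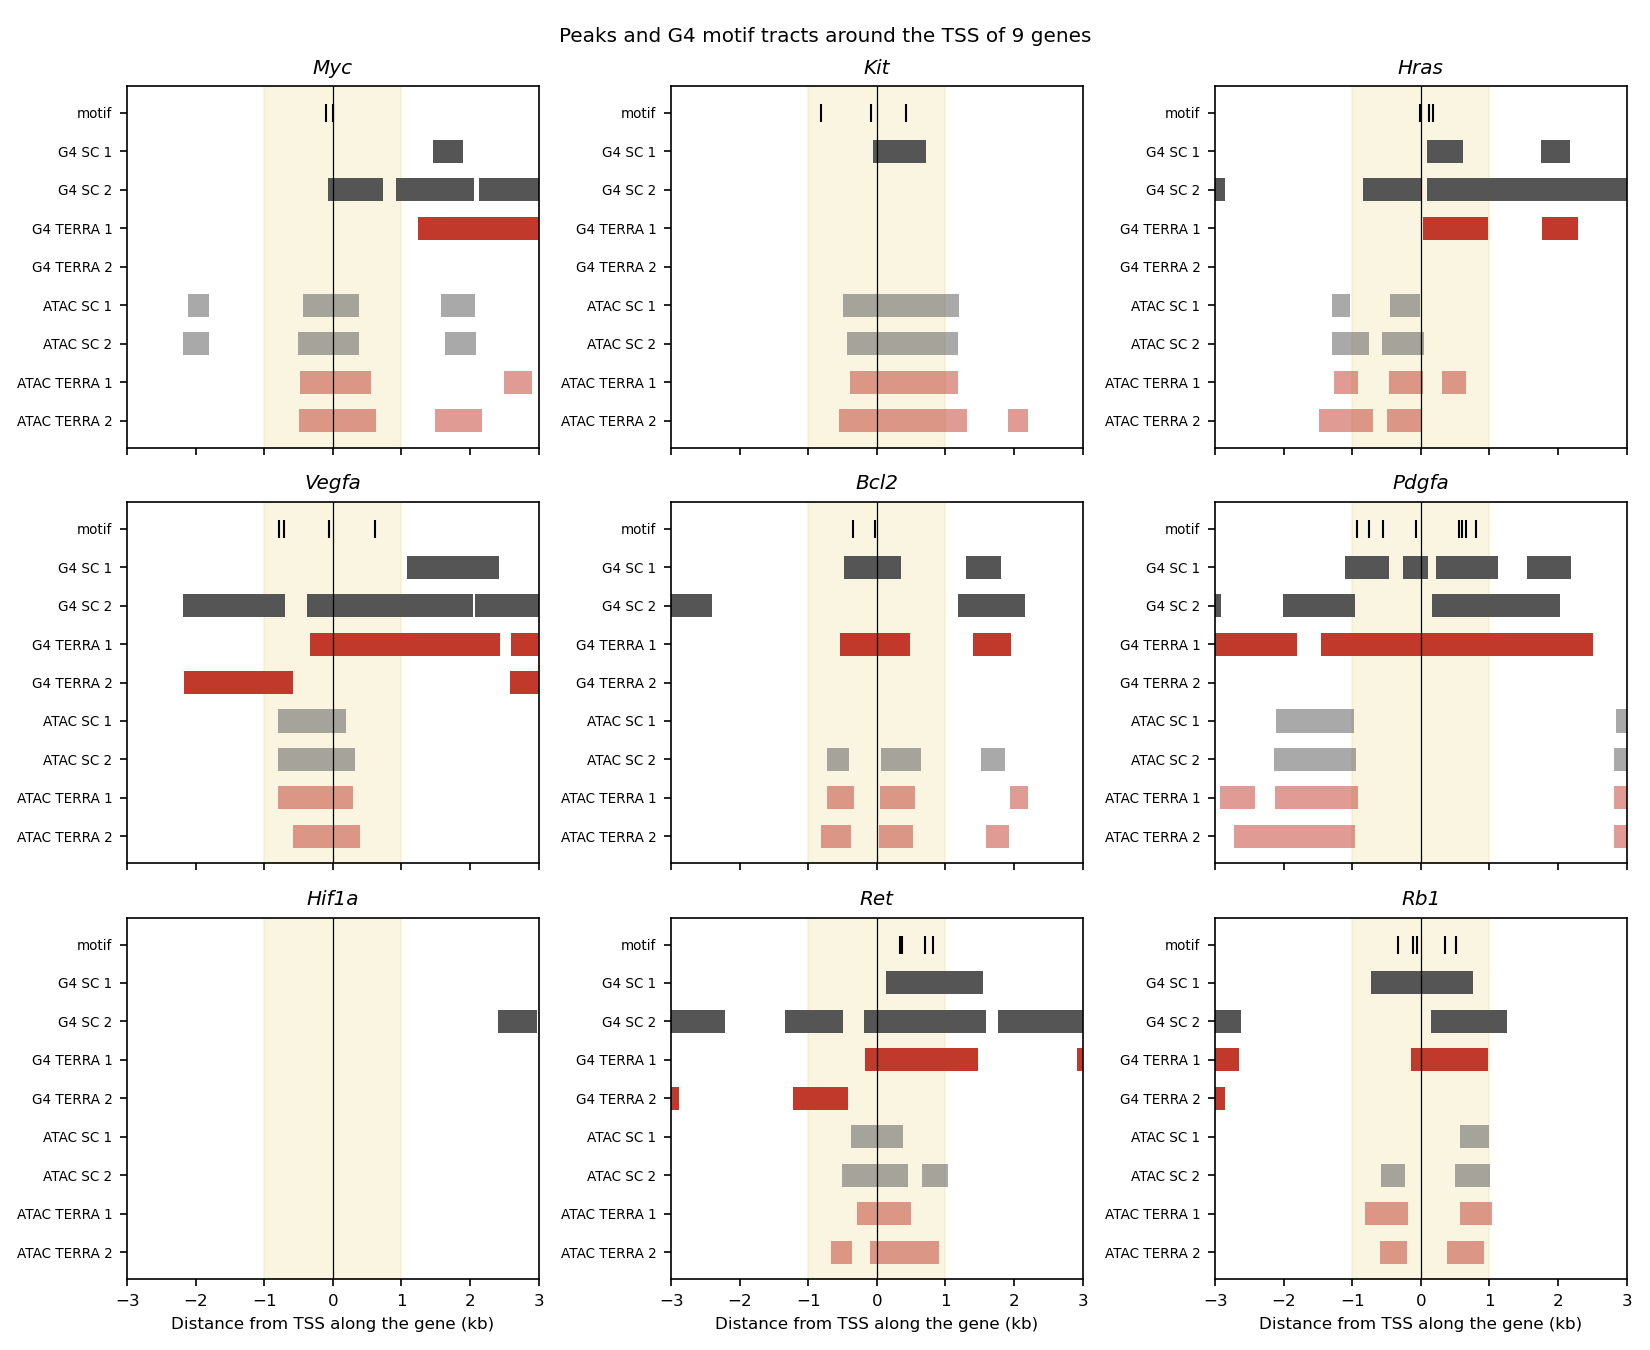
Peaks of the 4 G4 and 4 ATAC lists within 3 kb of the TSS of each gene, against the distance from the TSS along the gene in kb. Grey bars are scramble KD (SC) and red bars TERRA KD (TERRA), replicates 1 and 2, with ATAC paler, and black ticks mark the centres of motif tracts, searched only within the shaded 1 kb on each side. TERRA KD replicate 2 shows a G4 peak in the shaded window of Vegfa and Ret and of no other gene.

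Within 1 kb of the TSS, G4 peaks were listed at 6 of the 9 genes in each scramble KD list and in TERRA KD replicate 1, and at 2 of the 9 in TERRA KD replicate 2. Among all TSS the shares were 41.2%, 64.1%, 48.5% and 22.1%. The difference between the condition means was −2 genes, and it was 0 without TERRA KD replicate 2. Only Ret had a G4 peak in all 4 lists, as did 9.16% of all TSS, and Hif1a had none at its upstream start, as did 25.1%. No gene of the group had a peak in both scramble KD lists and in neither TERRA KD list, a pattern shown by 4.74% of all TSS. No gene had the opposite pattern either, shown by 0.248%.

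The same number of genes in the first 3 lists did not mean the same genes. Hras, Pdgfa, Ret and Rb1 were in all 3, Vegfa and Bcl2 in 2 of them, and Myc and Kit in 1 scramble KD list each. The start of Lrrc56 lies 126 bp from that of Hras on the opposite strand, so the windows of this pair nearly coincide.

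**Figure D2:**
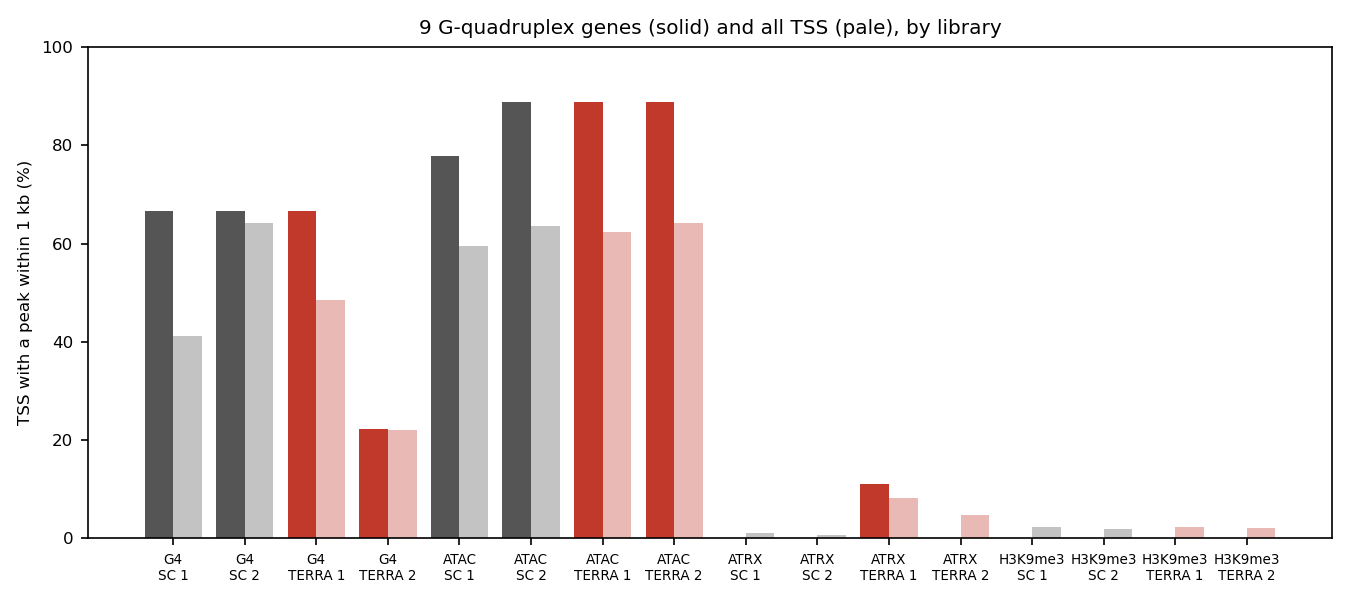
Share of TSS with a peak within 1 kb, in percent, for the 9 genes (solid bars) and all 26180 TSS (pale bars) in each of the 16 lists, grey for scramble KD (SC) and red for TERRA KD (TERRA). The G4 bars of the 9 genes stand at 66.7% in 3 lists and at 22.2% in TERRA KD replicate 2, where the bar of all TSS is at 22.1%.

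Peaks were ranked by their p within their own list, and the rank is given as a percentile, the share of the list with a weaker p. Values of depth-dependent tags were not compared between lists. Of the receptors, Ret had a G4 peak in every list. Its best peak was at percentile 98.2 in scramble KD replicate 1 (rank 2544 of 140119) and 86.3 in replicate 2, with summits 404 and 811 bp downstream of the TSS. In TERRA KD replicate 1 the percentile was 57.5, with the summit 965 bp downstream. These 3 peaks overlapped each other and each covered all 4 Ret tracts.

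In TERRA KD replicate 2 the only Ret peak within 1 kb was another site, with its summit 726 bp upstream, at percentile 4.26 and over no tract. A second Ret peak of scramble KD replicate 2, at percentile 27.0, lay there too, with its summit 792 bp upstream. The mean percentile was 92.3 ± 8.37 (SD, n = 2) in the scramble KD lists and 30.9 ± 37.7 (SD, n = 2) in the TERRA KD lists, a difference of −61.4 (two-sided exact permutation p 0.333, the smallest that 2 libraries against 2 allow). Both TERRA KD values were below both scramble KD values, as they were for 20.3% of the 2398 TSS with a G4 peak in all 4 lists, against 6.55% with both above. Without TERRA KD replicate 2 the difference was −34.7. Within 3 kb of the TSS the TERRA KD percentiles were 57.5 and 63.0, and the difference was −38.2. Kit, the other receptor, had a G4 peak in scramble KD replicate 1 only, at percentile 82.9 with its summit 147 bp downstream. It had none within 1 kb in the other 3 lists, although scramble KD replicate 2 was the deepest of them.

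Of the growth factors, Vegfa had no G4 peak within 1 kb in scramble KD replicate 1, and its best peak was at percentile 88.4 in scramble KD replicate 2 and reached 90.1 in TERRA KD replicate 1. Those 2 peaks were 2425 and 2770 bp long, with summits 983 and 864 bp downstream of the TSS, and both covered the tract 60 bp upstream. Ranked by fold enrichment instead of p, they were at percentiles 10.3 and 13.1. In TERRA KD replicate 2 the Vegfa peak was at percentile 18.6, with its summit 1109 bp upstream, over the 2 upstream tracts. A second curated Vegfa start, 7214 bp downstream, had a G4 peak in all 4 lists. There the best percentiles were 79.6 and 99.7 in the scramble KD lists and 83.9 and 85.6 in the TERRA KD lists, so that the conditions overlapped. The peaks at 99.7 and 85.6 had summits 3719 and 1682 bp downstream of that start, outside the window. A further peak of TERRA KD replicate 2, with its summit 537 bp downstream, was at percentile 62.2.

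Pdgfa had G4 peaks at percentiles 64.7 and 47.9 in scramble KD replicates 1 and 2 and 95.5 in TERRA KD replicate 1, and none in TERRA KD replicate 2. The TERRA KD replicate 1 peak was 3960 bp long and covered all 8 tracts. The 3 peaks within 1 kb in scramble KD replicate 1 together also covered all 8, and the scramble KD replicate 2 peaks covered 4. The best peak of scramble KD replicate 2 had its summit 1561 bp downstream of the TSS, outside the window. The value in TERRA KD replicate 1 was thus above both scramble KD values, while TERRA KD replicate 2 held no peak.

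Hras encodes a small GTPase downstream of such receptors. Its G4 percentiles were 20.3 and 98.7 in scramble KD replicates 1 and 2 and 70.2 in TERRA KD replicate 1, with no peak in TERRA KD replicate 2. The peak in scramble KD replicate 2 was 4725 bp long and had its summit 2882 bp downstream, outside the window. Its high rank therefore belongs to a summit in the gene body and not near the TSS.

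Myc encodes a transcription factor of cell growth, and its only G4 peaks within 1 kb of the TSS were 2 in scramble KD replicate 2. The stronger, at percentile 55.3, had its summit 1121 bp downstream and covered no tract. The weaker, at percentile 16.2, had its summit 382 bp downstream and covered the tract at the TSS. The Myc tract 101 bp upstream lay under no G4 peak in any list.

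Rb1 encodes the retinoblastoma protein, a brake on the cell cycle. Its G4 percentiles were 79.5 and 56.3 in the scramble KD lists and 0.967 in TERRA KD replicate 1, where the peak ranked 171999 of 173699. TERRA KD replicate 2 had none. The 3 peaks overlapped each other, with summits 539 to 887 bp downstream.

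Bcl2 encodes an inhibitor of apoptosis. It had a G4 peak at percentile 55.0 in scramble KD replicate 1 and another at 36.8 in TERRA KD replicate 1, with summits 7 and 23 bp downstream of the TSS. Both peaks covered both tracts, and replicate 2 of either condition had no peak. Hif1a had no G4 peak at its upstream start. At its downstream start a peak was listed in scramble KD replicate 1 at percentile 69.6 and in TERRA KD replicate 1 at percentile 9.22.

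**Figure D3:**
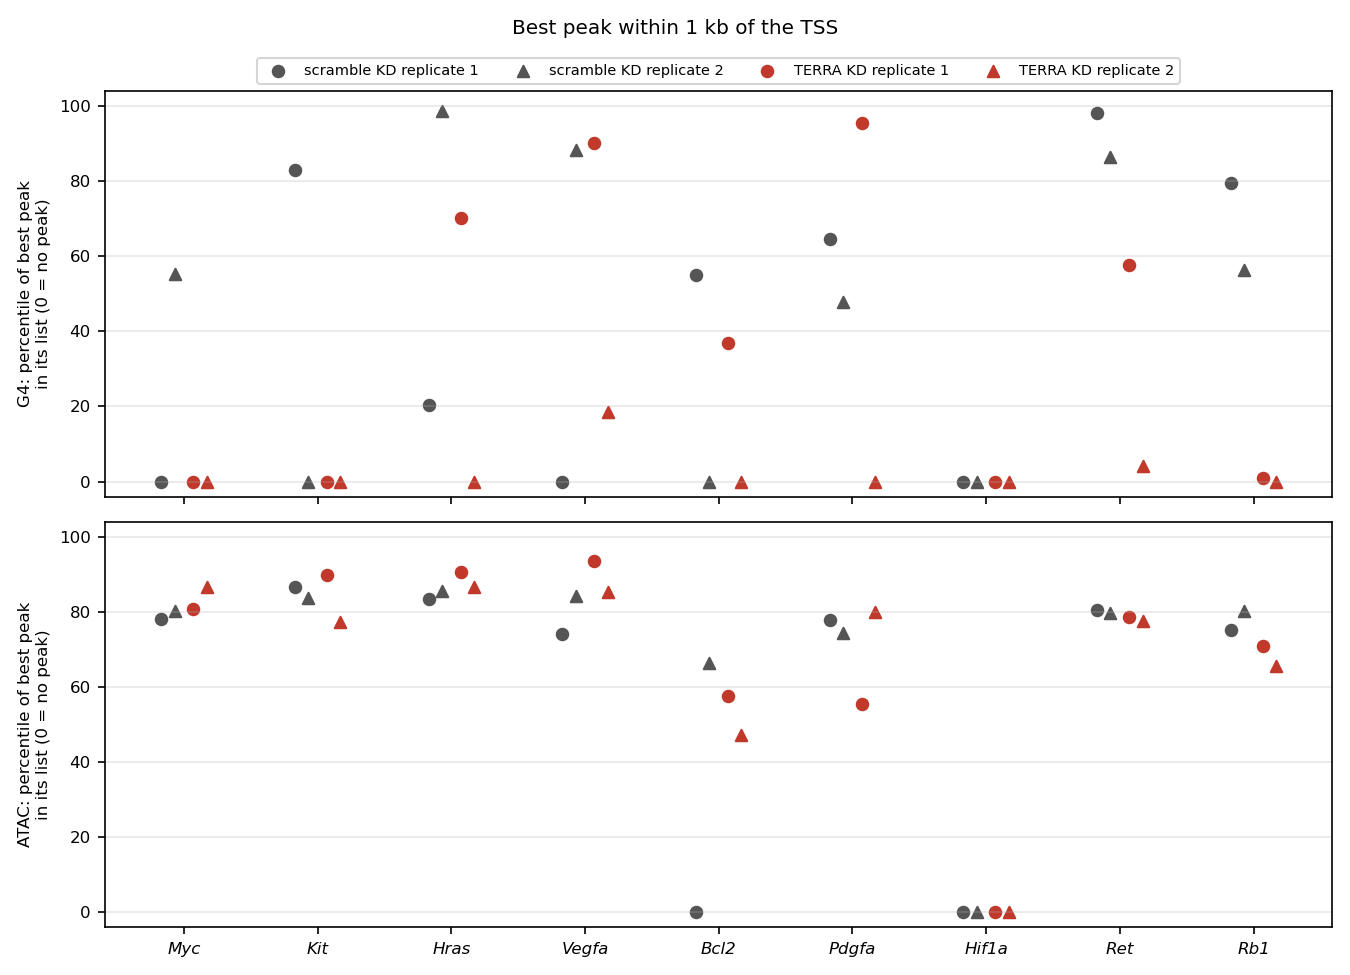
Percentile of the best peak within 1 kb of the TSS in its own list, for G4 (top) and ATAC (bottom), by gene. Each point is 1 library, grey for scramble KD and red for TERRA KD, circles for replicate 1 and triangles for replicate 2, and 0 stands for no peak. G4 points of a gene spread widely, as for Hras from 20.3 to 98.7 in the scramble KD lists, while the ATAC points of the 7 genes with a peak in all lists lie between 55.5 and 93.6.

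Over the 9 genes, with 0 where no peak was listed, the median G4 percentile was 55.0 and 55.3 in the scramble KD lists and 36.8 and 0 in the TERRA KD lists, a difference of −36.7. Without TERRA KD replicate 2 it was −18.3. Over all TSS that had a peak, the median was 58.7 and 65.9 in the scramble KD lists and 52.4 and 53.7 in the TERRA KD lists. That median leaves out TSS with no peak, so it is not like for like with the median of the 9 genes. A G4 peak was listed at 41.2% and 64.1% of all TSS in the scramble KD lists and at 48.5% and 22.1% in the TERRA KD lists.

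Of the 31 tracts of these genes, 22 and 18 lay under a G4 peak of scramble KD replicates 1 and 2, and 22 under one of TERRA KD replicate 1. Only 2 did in TERRA KD replicate 2, both at Vegfa. Among all TSS, those with a tract had a G4 peak more often than those without in all 4 lists. The shares were 57.1% against 21.8% and 75.2% against 50.5% in the scramble KD lists, and 64.2% against 29.5% in TERRA KD replicate 1. The last G4 list, TERRA KD replicate 2, gave 23.5% and 20.5%, the smallest gap of the 4.

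**Figure D4:**
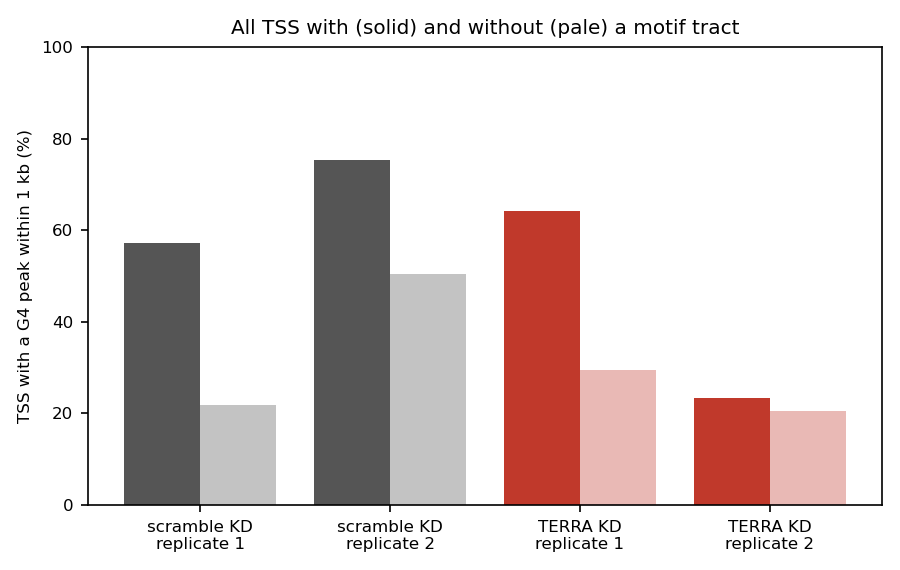
Share of all TSS with a G4 peak within 1 kb, in percent, for TSS with a motif tract in that window (solid bars, 14378 TSS) and without (pale bars, 11802 TSS), in each G4 list. The bars stand at 57.1% and 21.8% in scramble KD replicate 1, and at 23.5% and 20.5% in TERRA KD replicate 2.

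In the first exon and intron, all 9 genes had a G4 peak in both scramble KD lists and in TERRA KD replicate 1, and 4 had one in TERRA KD replicate 2. Among all genes the shares were 45.7% and 70.7% in the scramble KD lists and 53.9% and 40.3% in the TERRA KD lists. The difference of the means was −2.5 genes, and 0 without TERRA KD replicate 2. With equal numbers of top-ranked peaks in the lists of a replicate number, 9 and 9 genes had a peak in the scramble KD lists and 6 and 4 in the TERRA KD lists, a difference of −4. Counting only peaks past a -log10 p of 5, 7 and 8 genes had one against 5 and 1, a difference of −4.5. The 4 genes were Kit with 5 peaks, Bcl2 with 11, and Vegfa and Ret with 1 each. Kit and Bcl2 have long first introns, and the first exon and intron of Bcl2 span 170892 bp. Myc, Hras, Pdgfa, Hif1a and Rb1 had no peak there in that list.

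Over the whole bodies lay 39 and 106 G4 peaks in the scramble KD lists and 49 and 60 in the TERRA KD lists. Per 10 kb these were 0.745 and 2.02 in the scramble KD lists and 0.935 and 1.15 in the TERRA KD lists. The genome as a whole, sequence outside genes included, held 0.528 and 1.47, and 0.655 and 0.849. The density over the bodies of all genes was not computed, so these values are not like for like. The difference of the means was −18 peaks, within the gap between the scramble KD libraries, and it was −23.5 without TERRA KD replicate 2. With equal numbers of top-ranked peaks it was −3, from 39 and 63 peaks against 36 and 60. All 9 genes had a body peak in the first 3 lists, and 6 did in TERRA KD replicate 2, against 63.1% and 83.6% of all genes in the scramble KD lists and 70.8% and 69% in the TERRA KD lists. The 3 genes without a body peak there were Myc, Hras and Hif1a.

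The order by density differed from the order by count. Hras, with a body of 4071 bp, held 2 peaks and 4.91 per 10 kb in each of the first 3 lists. Bcl2, with a body of 176115 bp, held 9 and 33 peaks in the scramble KD lists and 7 and 13 in the TERRA KD lists, which is 0.397 to 1.87 per 10 kb. Ret held 6 and 16 peaks in the scramble KD lists and 13 and 12 in the TERRA KD lists, with the conditions overlapping. Rb1 held 6 and 16 against 8 and 13, and Kit 7 and 22 against 5 and 15, so that body peaks of both were present in TERRA KD replicate 2 although their TSS held none.

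**Figure D5:**
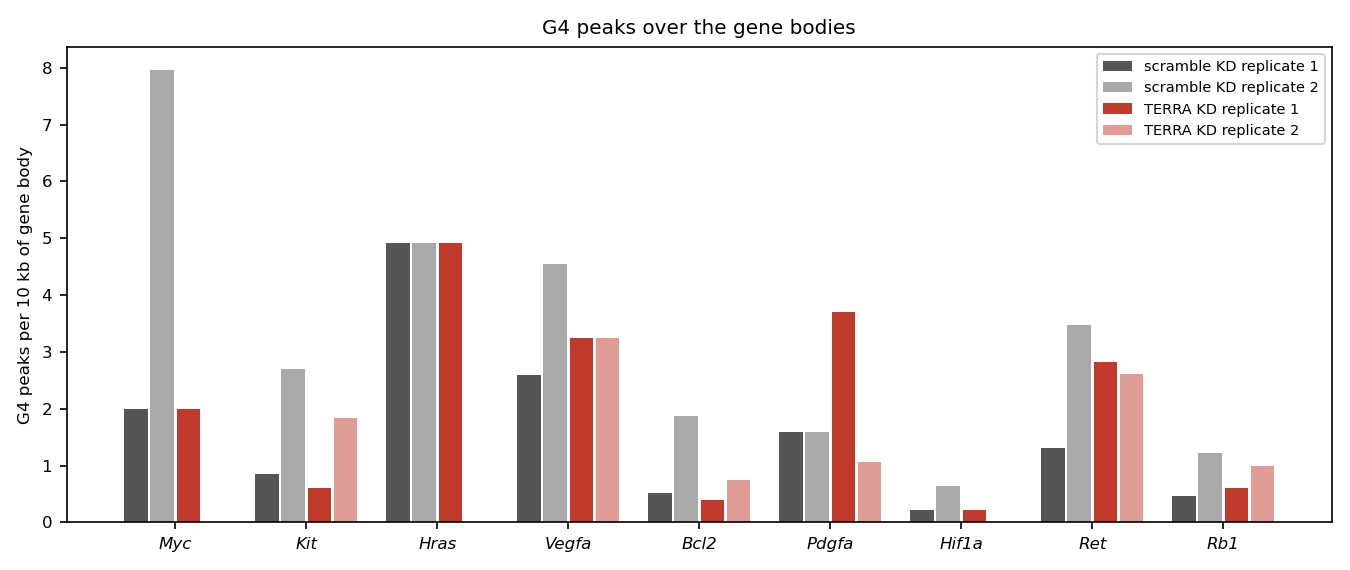
G4 peaks per 10 kb of gene body, by gene and library, grey for scramble KD and red for TERRA KD, with replicate 2 paler. Each bar is 1 library and there are no error bars. Hras stands at 4.91 in 3 lists and at 0 in TERRA KD replicate 2, while Kit, Vegfa, Bcl2, Pdgfa, Ret and Rb1 have a bar in all 4.

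ATAC peaks within 1 kb of the TSS were listed at 7 and 8 of the 9 genes in scramble KD replicates 1 and 2 and at 8 in both TERRA KD replicates. Among all TSS the shares were 59.4%, 63.5%, 62.3% and 64.2%. Myc, Kit, Hras, Vegfa, Pdgfa, Ret and Rb1 had a peak in all 4 lists, as did 57.1% of all TSS. Bcl2 lacked one in scramble KD replicate 1 only. Hif1a had none at its upstream start in any list, as did 32.8% of all TSS. At its downstream start Hif1a had an ATAC peak in all 4 lists, at percentiles 88.7 and 94.3 in the scramble KD lists and 98.1 and 94.7 in the TERRA KD lists, with summits 246 to 256 bp upstream of that start. These data thus show accessible chromatin at the downstream Hif1a start and none detected at the upstream one. First exons and introns held an ATAC peak in 7 and 8 of the 9 genes in the scramble KD lists. In the TERRA KD lists 8 and 7 did, against 59.3%, 63.6%, 62.3% and 64.7% of all genes in that order. Bodies held one in 8 and 9 genes in the scramble KD lists and 9 and 8 in the TERRA KD lists. The shares of all genes were 68.2%, 71.9%, 70.6% and 73.0%.

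Of the 7 genes with an ATAC peak in all 4 lists, Vegfa, Myc and Hras had both TERRA KD percentiles above both scramble KD percentiles. Vegfa went from 74.2 and 84.3 in the scramble KD lists up to 93.6 and 85.3 in the TERRA KD lists, a difference of 10.2. Myc went from 78.2 and 80.2 to 80.7 and 86.6, a difference of 4.43, and Hras from 83.3 and 85.7 to 90.8 and 86.6, a difference of 4.17. Among the 14950 TSS with an ATAC peak in all 4 lists, 25.3% were higher in this way.

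Rb1 and Ret had both TERRA KD values below both scramble KD values, as did 8.19% of the 14950 TSS. Ranked only among the best peaks of TSS, both genes stayed lower. By fold enrichment Rb1 stayed lower and Ret overlapped. Rb1 went from 75.2 and 80.3 to 70.8 and 65.6, a difference of −9.52, and Ret from 80.5 and 79.8 to 78.5 and 77.7, a difference of −2.02. The best Rb1 peak was not the same site in the 2 conditions. Its summit lay 819 and 653 bp downstream of the TSS in the scramble KD lists and 444 and 384 bp upstream in the TERRA KD lists. The downstream site was also listed in TERRA KD replicates 1 and 2, at percentiles 34.2 and 55.8. The upstream site was also listed in scramble KD replicate 2, at 30.9, and not in scramble KD replicate 1. The Rb1 difference therefore compares different sites. Each of these 5 differences had an exact permutation p of 0.333, two-sided, the smallest this test can give with 2 libraries against 2.

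For Kit and Pdgfa the conditions overlapped, with differences of −1.66 and −8.31 (exact permutation p 1 for each). The Pdgfa values were 77.8 and 74.5 in the scramble KD lists and 55.5 and 80.1 in the TERRA KD lists. Its best ATAC peak had a summit 1355 to 1565 bp upstream of the TSS in every list, reached into the window only at its edge, and covered at most 1 of the 8 Pdgfa tracts. The Kit peak covered the TSS, 1582 to 1880 bp long, and held 2 of the 3 Kit tracts in every list. Over the 9 genes, the median ATAC percentile was 77.8 and 80.2 in the scramble KD lists and 78.5 and 77.7 in the TERRA KD lists, a difference of −0.91. The median over all TSS that had an ATAC peak was 77.9 and 82.1 in the scramble KD lists and 81.0 and 83.4 in the TERRA KD lists. It leaves out TSS with no peak, which the median of the 9 genes counts as 0, so the medians are not like for like.

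In scramble KD replicate 1, 4 of the 6 genes with a G4 peak had it over an ATAC peak of the same condition and number, and all 6 did in both scramble KD replicate 2 and TERRA KD replicate 1. In TERRA KD replicate 2, Ret had such an overlap and Vegfa did not. Of all TSS with a G4 peak, the shares with such an overlap were 70.4% and 65.2% in the scramble KD lists and 72.3% and 30.9% in the TERRA KD lists. Kit and Myc had an ATAC peak in all 4 lists, at percentiles of 77.3 to 89.8 and of 78.2 to 86.6, and a G4 peak in 1 list each.

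ATRX peaks were absent from the TSS of 8 of the 9 genes in all 4 lists, as from 86.4% of all TSS. The exception was Vegfa in TERRA KD replicate 1. That peak held 5 tags with a -log10 p of 2.86 and ranked 11197 of 41384, and its summit lay 1263 bp upstream of the TSS. Among all TSS, 1.07% and 0.588% had an ATRX peak in the scramble KD lists and 8.22% and 4.83% in the TERRA KD lists. With 9 genes, a share of this size gives less than 1 gene per list. TERRA KD replicate 1 had 4104486 tags, the fewest of the ATRX libraries, and 41384 peaks, the most. Its input held 3374834 tags, against 28622103 for TERRA KD replicate 2. With equal numbers of top-ranked peaks in the lists of a replicate number, 0 of the 9 genes had an ATRX peak in each list. The part of this library in the ATRX shares was not tested. The Vegfa peak overlapped a G4 peak in scramble KD replicate 2 and TERRA KD replicate 2 and lay over none of the 4 Vegfa tracts.

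An ATRX peak lay in the first exon and intron of 0 and 0 of the 9 genes in the scramble KD lists. In the TERRA KD lists 3 and 1 genes had one. Among all genes the shares were 3.11% and 3.57% in the scramble KD lists and 14.1% and 9.73% in the TERRA KD lists. Over the bodies, ATRX peaks numbered 0 and 7 in the scramble KD lists and 6 and 5 in the TERRA KD lists. In scramble KD replicate 2 they lay in Ret (3), Rb1 (3) and Kit (1). In TERRA KD replicate 1 they lay in Ret (2) and 1 each in Vegfa, Bcl2, Pdgfa and Hif1a, and in TERRA KD replicate 2 in Ret (3), Bcl2 (1) and Rb1 (1). The genes with an ATRX body peak made up 0 and 3 of the 9 in the scramble KD lists and 5 and 3 in the TERRA KD lists, against 9.13%, 11.8%, 31.6% and 23.6% of all genes. These counts of genes take no account of body length. Per 10 kb of body, TERRA KD replicate 1 held 0.115 ATRX peaks, against 0.156 over the genome. TERRA KD replicate 2 held 0.0955, against 0.0819. Scramble KD replicate 1 held 0, against 0.0275, and replicate 2 held 0.134, against 0.0514. The genome values include sequence outside genes, so they are not like for like. The highest percentile was 82.0, reached by an Rb1 peak of scramble KD replicate 2 with 10 tags, 117725 bp downstream of the TSS. A Ret peak of TERRA KD replicate 2 with 17 tags, 25480 bp downstream, had the same rounded value.

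H3K9me3 peaks were found within 1 kb of none of the 9 TSS and in none of the first exons and introns, in any list. The first exons and introns of all genes held one in 5.7%, 8.69%, 5.41% and 8.55% of cases, in the order scramble KD replicates 1 and 2 and TERRA KD replicates 1 and 2. Among all TSS, 2.28% and 1.96% had such a peak in the scramble KD lists and 2.35% and 2.07% in the TERRA KD lists, and 94.8% had none in any list. Over the bodies there were 6 peaks in all. Kit and Pdgfa had 1 each in scramble KD replicate 1, Rb1 had 1 in scramble KD replicate 2, and Kit, Pdgfa and Rb1 had 1 each in TERRA KD replicate 2. The shares of all genes with a body peak were 13.9% and 21.3% for the scramble KD lists and 13.2% and 21.2% for the TERRA KD lists. Per 10 kb of body, H3K9me3 peaks of the 9 genes numbered 0.0382, 0.0191, 0 and 0.0573 in that order. Over the genome, sequence outside genes included, they numbered 0.0994, 0.287, 0.0959 and 0.282. Peaks of the same gene in different lists lay at different sites, and the one nearest to a TSS was 7368 bp downstream, in Rb1.

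The 12 genes reported from a second list were ones whose human promoters or first introns are described as forming G-quadruplexes. They were Myb, Mycn, Tert, Pdgfra, Kdr, Src, Mcl1, Birc5, Esr1, Egfr, Met and Stat3. A G4 peak within 1 kb of the TSS was listed for 9 and 12 of the 12 in the scramble KD lists and for 9 and 2 in the TERRA KD lists, against 41.2%, 64.1%, 48.5% and 22.1% of all TSS in that order. Kdr and Egfr, which encode receptors for VEGF and EGF, had one in all 4 lists, as did 9.16% of all TSS. Birc5, which encodes the apoptosis inhibitor survivin, had one in both scramble KD lists and in neither TERRA KD list, as did 4.74% of all TSS. ATAC peaks were listed for 8 and 9 in the scramble KD lists and 9 and 9 in the TERRA KD lists, against 59.4%, 63.5%, 62.3% and 64.2% of all TSS. ATRX peaks were at Src in TERRA KD replicate 1 and Egfr in TERRA KD replicate 2, where 8.22% and 4.83% of all TSS had one, and no H3K9me3 peak was at any of the 12.

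For each gene of the group, the protein-coding gene with the smallest mean difference in percentile over the 16 lists, with 0 where no peak was listed, was found among 21000. These were Oscp1 for Myc (0.883 points), Atad3a for Kit (1.33), Vasp for Ret (2.06), Ttc9 for Rb1 (2.02), Mxi1 for Bcl2 (2.78), Pex5 for Pdgfa (3.42) and Pold1 for Vegfa (3.92). Lrrc56 had a difference of 0 from Hras because the pair share peaks. Hif1a had no peak within 1 kb of its most upstream start in any list, as did 2534 other coding genes at theirs, so none is named. A list in which both genes of a pair had no peak adds 0 to this mean.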

How the data were processed

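The authors trimmed reads with Trim Galore 0.5.0, aligned them with Bowtie2 2.3.4.1 to GRCm38/mm10 and called peaks in each library at p 0.01. G4 (MACS 1.4.2), ATRX and H3K9me3 (MACS 1.4.3) used input, with 1 input shared by the G4 replicates of a condition, and ATAC (MACS 2.2.7.1) used none. The deposited lists hold tag counts per peak, a score from the p, a fold enrichment ratio and a false discovery rate in percent. For ATAC, the deposited lists hold a pileup signal, fold enrichment and -log10 p. None is scaled between libraries.

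With Python 3.11.15 and pandas 2.3.3, peaks sharing at least 1 bp with a region were counted, and the best peak was given as a percentile of its list. TSS were the most upstream curated starts of 26180 genes. Values present in all 4 lists were tested with two-sided exact permutation. The overlap code was tested on simulated data. The genes named were the 9, a second list, genes within 1 kb of a member's TSS and the nearest gene by pattern. The second list is reported for 12 genes, and 1 further gene of it is not reported here. The members and lists were chosen with earlier results of these data known. Input tracks were not analysed here.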

Additional observations from a re-analysis of the deposited data

How the results depend on the processing

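With 2 libraries per condition, the exact permutation test cannot go below a p of 0.333, and depth, from 2961038 to 24588605 tags for G4, limits which sites can have a peak. All differences here are TERRA KD minus scramble KD. Leaving out replicate 1 or 2 gave −4 to 0 genes with a G4 peak within 1 kb of the TSS, −5 to 0 for the first exon and intron, −46 to 10 body peaks and −55.3 to −18.1 for the median G4 percentile. For ATAC it gave 0 to 1 genes and −2.55 to 0.72 for the median percentile, for ATRX 0 to 1 genes, and for H3K9me3 0. The percentile of Ret moved from −82.1 to −40.7 for G4, that of Kit from −6.38 to 3.06 and that of Pdgfa from −22.3 to 5.65 for ATAC. The other ATAC differences ran from 1.03 to 19.4 for Vegfa, 2.49 to 6.37 for Myc, 0.91 to 7.42 for Hras, −14.6 to −4.40 for Rb1 and −2.11 to −1.94 for Ret. Without TERRA KD replicate 2, chosen after seeing the data, the G4 differences were 0 at the TSS and 0 in the first exon and intron. In the first exon and intron all 9 genes had a peak in the remaining lists, so this count was at its ceiling. With equal numbers of top-ranked peaks, TERRA KD replicate 1 had 6 genes there, against 9 and 9 in scramble KD. Past a -log10 p of 5 it had 5, against 7 and 8.

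The median G4 percentile difference was 0 with a -log10 p of at least 5, since at most 4 of the 9 genes had such a peak in any list. Ranked by fold enrichment it was −22.9. The medians were then 20.65 and 28.86 in the scramble KD lists and 3.675 and 0 in the TERRA KD lists. For ATAC, a window of 500 bp gave 1 gene and a median of 0.68, at least 50% of the peak inside gave 0.19, all curated starts gave 1.18 and ranking by fold enrichment gave −2.33. The ATRX difference was 0 with the -log10 p limit, the 50% overlap, equal numbers of top-ranked peaks or a 500 bp window, and 1 with a 3 kb window. The cause of these changes was not tested.

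The replicate numbers are shared, but no label ties them to a culture or day. Over 1 Mb stretches, deviations of libraries with the same number had an r of 0.564 for G4, 0.100 for ATAC, 0.0487 for ATRX and 0.294 for H3K9me3. With the replicate block the differences have the same value by construction (−2 genes for G4), and the sign-flip test cannot go below a p of 0.5.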
